A study of Homo sapiens with 8 samples.

Results

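The transcription factors that define hepatocyte identity were examined in HuH7 cells treated with ginsenoside Rk2 after OGD/R, that is, withdrawal of oxygen and glucose followed by their return. The set holds 8 genes, HNF4A, NR5A2, FOXA1, FOXA2, FOXA3, CEBPA, ONECUT1 and PROX1, taken by symbol from the 15767 rows of the count table. HuH7 is a human hepatoma cell line. All libraries came from wildtype HuH7 cells kept for 6 h at 1% oxygen in DMEM without glucose and then for 6 h in normoxia. During those last 6 h the medium contained either DMSO (I/R+DMSO, n = 4 libraries) or 20 µM Rk2 dissolved in DMSO (I/R+Rk2, n = 4 libraries). Rk2 is a ginsenoside, a saponin from ginseng, and the comparison asks which transcripts differed when it was added at reoxygenation. Cells without OGD/R were not analysed here, so both groups share the injury and only the effect of Rk2 within it can be read. A single tumour line also limits what the groups represent, since it differs from hepatocytes of a liver. The labels do not say whether the replicates were separate cultures, and the p-values measure the spread between these libraries.

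Hepatocytes keep their identity through a small network of transcription factors that bind each other's promoters and enhancers together with those of liver genes. FOXA proteins are pioneer factors that open chromatin in the endoderm, HNF4A is the nuclear receptor that drives most hepatocyte genes, and CEBPA, a bZIP protein, sustains the mature, metabolic state. ONECUT1 (also called HNF6) and PROX1 are homeodomain proteins that act in liver growth from the early bud, and NR5A2 (LRH-1) is a nuclear receptor that controls bile acid and cholesterol genes.

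All 8 genes were present in both the count and the FPKM table, and all passed the filter on low counts (10 or more counts in 4 or more libraries), as did 12910 genes in all. Of the 8, NR5A2 rose with Rk2 and no other passed the test (edgeR's quasi-likelihood test, Benjamini-Hochberg adjusted p below 0.05). Over all tested genes 18.2% were called, 11.0% as higher and 7.24% as lower in I/R+Rk2. NR5A2 was also the only 1 of the 8 past a fold change of 1.5, a rule that 3.04% of all tested genes met. On CPM (the count of a gene scaled to a common library size, with TMM factors) the groups did not overlap for 2 of the 8, NR5A2 and CEBPA, and for 28.3% of all tested genes. The log2 fold changes (log2FC, I/R+Rk2 over I/R+DMSO) were positive for 2 factors and negative for 6, with a median of -0.060, beside a median of -0.0021 over all tested genes. Read against those backgrounds, 1 call and 2 separated pairs of groups among 8 genes are near what other genes gave.

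**Figure D1:**
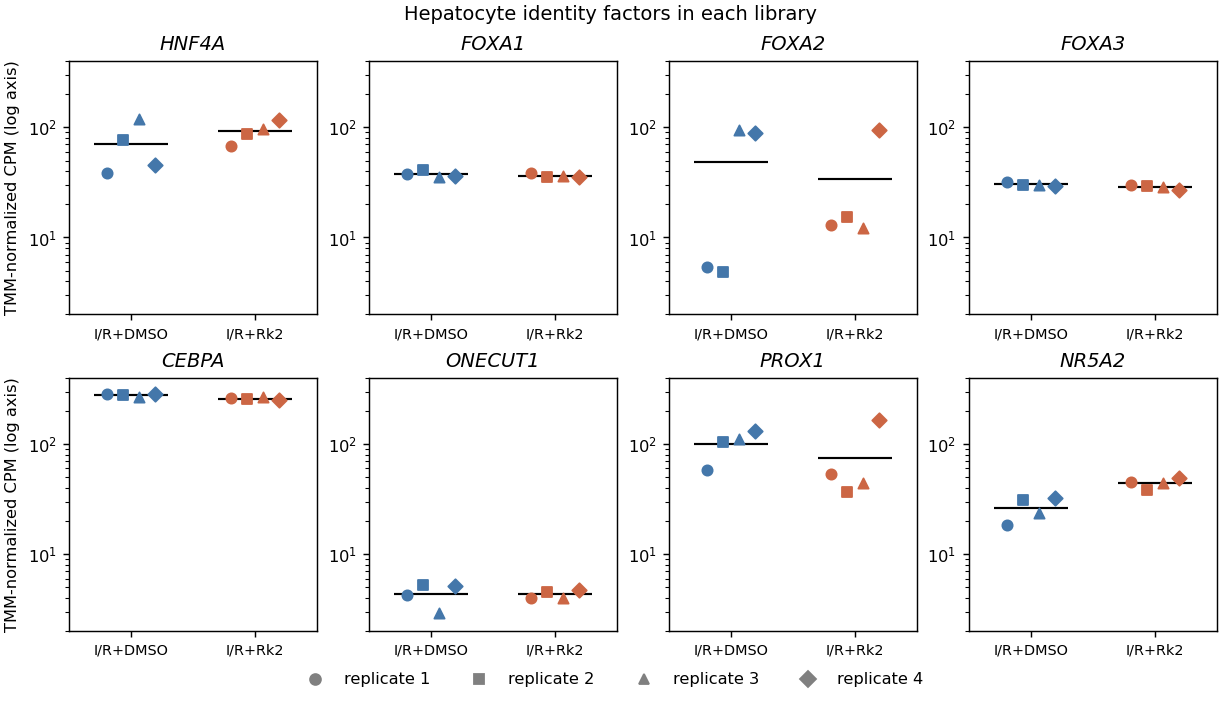
TMM-normalized CPM (log axis) of the 8 factors in each I/R+DMSO and I/R+Rk2 library, with a symbol for each replicate and a line at the group mean. The groups separate for NR5A2, and narrowly for CEBPA, while FOXA2 ranges from 4.85 to 95.5 CPM across libraries of both groups.

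NR5A2 was the only member that passed the test. Its normalized CPM was 18.3, 30.9, 23.4 and 32.1 in the I/R+DMSO libraries and 45.5, 38.3, 44.1 and 49.5 in the I/R+Rk2 libraries. Every I/R+Rk2 library was above the highest I/R+DMSO library. The mean CPM rose from 26.2 ± 6.49 to 44.3 ± 4.66 (SD, n = 4 each), by a fold change of 1.69 with a 95% interval of 1.27 to 2.24. On the log2 scale this was 0.76 with an SE of 0.177 (edgeR adjusted p = 0.0235). These are bulk values, in which fewer cells with a transcript and less of it per cell cannot be told apart.

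The FPKM values, which the authors normalized for transcript length and depth, gave the same direction for NR5A2. They were 5.43, 8.19, 7.70 and 8.53 in I/R+DMSO and 12.7, 12.9, 12.6 and 11.7 in I/R+Rk2. Again the groups did not overlap. The mean rose from 7.46 ± 1.40 to 12.5 ± 0.563 FPKM (SD, n = 4 each), and limma on log2(FPKM + 1) gave a difference of 0.69 on that scale (adjusted p = 0.0141), where 9.48% of 11852 genes were called. The call depended on single libraries. The adjusted p of edgeR was 0.0618 without I/R+DMSO replicate 3, 0.0545 without I/R+Rk2 replicate 1, 0.0549 without replicate 3 and 0.0666 without replicate 4, while the log2FC stayed between 0.62 and 0.87 with any library left out. Longer genes were higher in I/R+Rk2 across the tested genes (Spearman's rho 0.39 between length and log2FC over 12745 genes, all from the same libraries), and with a gene length correction NR5A2 had a log2FC of 0.67 (edgeR adjusted p = 0.0245). With the correction for length and GC the log2FC of NR5A2 was 0.56 (edgeR adjusted p = 0.0426). That was its lowest value in the 21 alternatives, and short of a 1.5-fold change.

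NR5A2 lies on the plus strand of chromosome 1 (chr1:200027602-200177424, GENCODE v29 on GRCh38), with annotated transcripts of up to 5.086 kb. RefSeq promoters (GRCh38.p14) were found for 6 of the 8 factors (all but FOXA2 and PROX1), 8 starts in all. The 250 bases before each start were searched on both strands for short motifs of the network's own factors. The motifs were TGTTTAC (FOXA), CAAAGTCC (HNF4), CAAGGTCA (NR5A2), TTGCNNAA (C/EBP) and ATCAAT (ONECUT). Over the windows of 35116 promoters these were found in 2.98%, 1.02%, 1.14%, 9.05% and 5.58%. The window of the second NR5A2 start (chr1:200042341-200042590, plus strand) and those of both HNF4A starts (chr20:44355449-44355698 and chr20:44400989-44401238, plus strand) are the only ones of the 8 with a match, and they are shown so that the matches can be seen in place, each in capitals. None of the 3 holds an exon base of its gene, and those of NR5A2 start 2 and HNF4A start 2 lie within the span of the gene.
NR5A2 start 2: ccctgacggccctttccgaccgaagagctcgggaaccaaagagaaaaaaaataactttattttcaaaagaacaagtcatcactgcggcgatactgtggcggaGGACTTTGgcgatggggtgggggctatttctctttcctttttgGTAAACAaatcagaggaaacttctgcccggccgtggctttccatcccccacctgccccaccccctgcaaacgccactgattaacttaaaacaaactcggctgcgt
HNF4A start 1: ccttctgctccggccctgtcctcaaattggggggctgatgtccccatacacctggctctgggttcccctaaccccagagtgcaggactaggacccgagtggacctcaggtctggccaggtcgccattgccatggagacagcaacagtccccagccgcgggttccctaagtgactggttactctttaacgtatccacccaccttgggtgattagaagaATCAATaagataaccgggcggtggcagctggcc
HNF4A start 2: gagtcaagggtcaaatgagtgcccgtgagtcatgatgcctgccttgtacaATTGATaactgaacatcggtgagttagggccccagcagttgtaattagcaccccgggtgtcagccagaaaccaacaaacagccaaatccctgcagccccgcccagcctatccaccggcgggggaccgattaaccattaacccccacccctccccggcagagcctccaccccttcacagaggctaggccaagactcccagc
In the NR5A2 window the capitals mark, in order, an HNF4 motif and a FOXA motif, each as its reverse complement. In each HNF4A window they mark an ONECUT motif, as its reverse complement in start 2. The matches do not overlap. A match of letters describes the sequence and is not evidence of binding in these cells, and which start was used was not measured.

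HNF4A, the other nuclear receptor of the set, varied widely among the I/R+DMSO libraries. Its normalized CPM was 38.8, 76.8, 119 and 45.8 in I/R+DMSO and 68.1, 86.8, 96.5 and 117 in I/R+Rk2. Both the lowest and the highest library were I/R+DMSO libraries, and the groups overlapped. The means were 70.1 ± 36.6 and 92.2 ± 20.6 CPM (SD, n = 4 each). The log2FC of 0.39 (SE 0.354, edgeR adjusted p = 0.474) had a 95% interval of -0.42 to 1.21, which leaves room for changes in either direction.

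The FPKM of HNF4A showed no such difference in the means, with 11.4, 13.9, 19.3 and 19.6 FPKM in I/R+DMSO and 12.4, 15.9, 17.0 and 18.8 in I/R+Rk2. The means were 16.1 ± 4.07 and 16.0 ± 2.69 FPKM (SD, n = 4 each), with a limma difference of 0.015 on the log2(FPKM + 1) scale (adjusted p = 0.967). I/R+DMSO replicate 4 was the highest I/R+DMSO library by FPKM and next to the lowest by CPM. Dividing the unscaled CPM by the FPKM gives a ratio in kb, which is related to transcript length but is not that length. CEBPA, with a single annotated transcript of 2.631 kb, had ratios of 3.13 to 3.17 kb. For HNF4A the ratio was 3.33, 5.49, 6.08 and 2.32 kb in I/R+DMSO and 5.53, 5.50, 5.73 and 6.34 kb in I/R+Rk2. Annotated lengths are thus not directly comparable with it. The highest ratio of HNF4A was 2.73 times its lowest, a spread larger than in 97.7% of 10714 genes that had 50 counts or more in every library, for which the median was 1.24. HNF4A (chr20:44355700-44434596, plus strand) has 9 annotated transcripts from 0.540 to 6.445 kb. Why the tables differ was not tested.

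**Figure D2:**
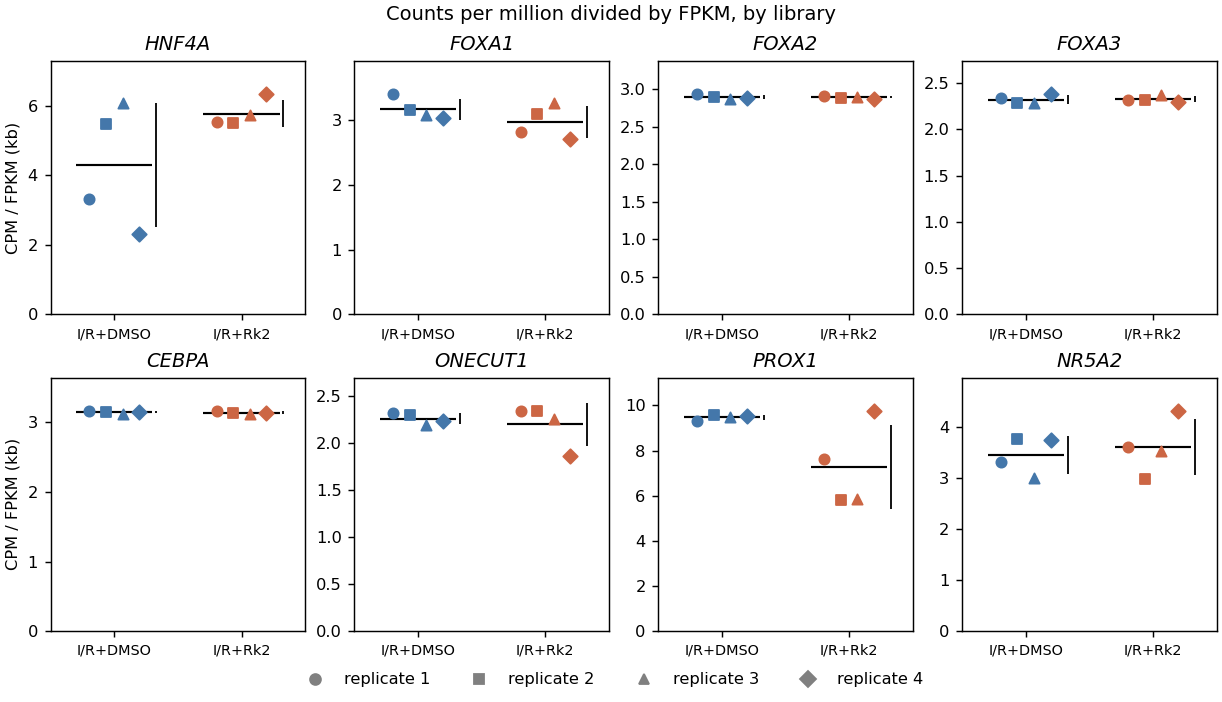
Unscaled CPM divided by FPKM (kb, linear axis from 0) for each factor in each library, with a horizontal line at the group mean and a vertical bar of 1 SD either way. HNF4A in I/R+DMSO and PROX1 in I/R+Rk2 spread widely, while FOXA2 (2.87 to 2.94 kb), FOXA3 and CEBPA are nearly level.

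The 3 FOXA genes behaved differently from one another across libraries. FOXA1 and FOXA3 were among the steadiest members, whereas FOXA2 took widely separated values in libraries of the same group. FOXA1 (chr14:37589984-37596059, minus strand) was at 37.3, 40.8, 35.4 and 36.1 CPM in I/R+DMSO and 38.2, 35.4, 35.8 and 35.8 in I/R+Rk2. The groups overlapped throughout, and the log2FC was -0.044 (SE 0.0597, 95% interval -0.18 to 0.093, edgeR adjusted p = 0.648). On the FPKM scale the sign turned, with 11.7 ± 0.907 FPKM in I/R+DMSO and 12.4 ± 1.29 in I/R+Rk2 (SD, n = 4 each).

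FOXA3 (chr19:45863989-45873797, plus strand), a family member of mature hepatocytes, was at 32.1, 29.9, 30.0 and 29.3 CPM in I/R+DMSO. In I/R+Rk2 it was at 30.2, 29.0, 28.8 and 27.0 CPM. The ranges overlapped by a small margin. The log2FC of FOXA3 was -0.076 (SE 0.0564, 95% interval -0.21 to 0.053, edgeR adjusted p = 0.380), with 12.9 ± 0.490 and 12.5 ± 0.502 FPKM (SD, n = 4 each). The intervals of FOXA1 and FOXA3 are narrow enough to leave out a change of 1.5-fold in either direction.

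FOXA2 (chr20:22581005-22585455, minus strand) had 101, 103, 1716 and 1907 counts in the I/R+DMSO libraries and 400, 291, 201 and 1888 in the I/R+Rk2 libraries. Normalized, this was 5.37, 4.85, 94.6 and 89.5 CPM in I/R+DMSO and 13.1, 15.4, 12.2 and 95.5 CPM in I/R+Rk2. I/R+DMSO replicates 3 and 4 and I/R+Rk2 replicate 4 were high, and the other 5 libraries were low. Within I/R+DMSO the highest library was 19.5 times the lowest and within I/R+Rk2 7.85 times, and the spread within groups was larger than in 99.3% of tested genes. The FPKM values repeated it, with 1.79, 1.66, 32.4 and 30.8 in I/R+DMSO and 4.53, 5.38, 4.24 and 33.7 in I/R+Rk2.

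Because of this spread FOXA2 gave no usable estimate of an Rk2 effect. The log2FC was -0.51 with an SE of 1.13 and a 95% interval of -3.12 to 2.10 (edgeR adjusted p = 0.787). The ratio of CPM to FPKM for FOXA2 stayed between 2.87 and 2.94 kb, so both tables carry the same split. In the annotation FOXA2 shares 70 exon bases on the same strand with AL121722.1, a gene looked up for this reason after its values were seen. AL121722.1 was at 84.7 ± 4.55 CPM in I/R+DMSO and at 111 ± 3.91 with Rk2 (SD, n = 4 each). It rose with a log2FC of 0.39 (edgeR adjusted p = 0.00227). Within I/R+DMSO the values of AL121722.1 ran from 80.3 to 89.5 CPM. How reads in the shared bases were counted is not given in the sources used here. What sets the FOXA2 split was not tested.

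The split changed which forkhead factor was the most abundant. FOXA2 made up 6.89% and 6.02% of the summed FOXA1, FOXA2 and FOXA3 FPKM in I/R+DMSO replicates 1 and 2, and 57.2% and 56.1% in replicates 3 and 4. In I/R+Rk2 it made up 14.5%, 18.2% and 15.4% in replicates 1 to 3 and 57.0% in replicate 4. The summed FPKM was 25.9, 27.6, 56.7 and 54.9 in I/R+DMSO and 31.3, 29.6, 27.6 and 59.0 in I/R+Rk2. FOXA1 stayed between 10.7 and 13.6 FPKM and FOXA3 between 12.0 and 13.4 FPKM over the 8 libraries.

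**Figure D3:**
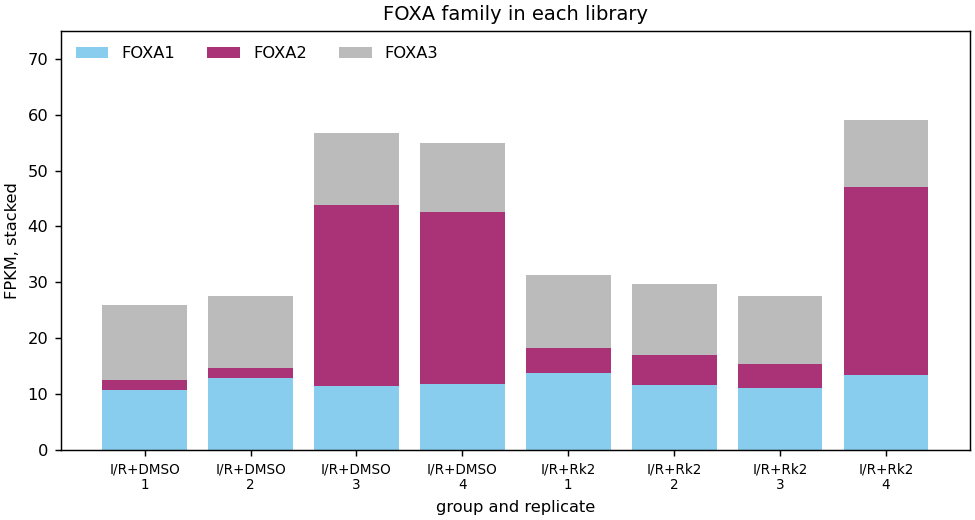
FPKM of FOXA1, FOXA2 and FOXA3 stacked for each library, by group and replicate (linear axis from 0). The bars of I/R+DMSO replicates 3 and 4 and of I/R+Rk2 replicate 4 reach 56.7, 54.9 and 59.0 FPKM, against 25.9 to 31.3 in the other 5 libraries, and FOXA2 makes up the difference.

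CEBPA was the most abundant member and among the most even. It is encoded by a single annotated transcript of 2.631 kb on the minus strand of chromosome 19 (chr19:33299934-33302564). Its normalized CPM was 286, 277, 270 and 282 in I/R+DMSO and 261, 255, 267 and 249 in I/R+Rk2. The lowest I/R+DMSO library was just above the highest I/R+Rk2 library. The means were 279 ± 6.92 and 258 ± 7.53 CPM (SD, n = 4 each), with a log2FC of -0.11 (SE 0.0362, 95% interval -0.20 to -0.029). The unadjusted p of 0.0142 from edgeR became 0.0653 after adjustment over all genes, so CEBPA was not called. Its interval leaves out any fall as large as 1.5-fold. The call turned on the method, with an adjusted p of 0.0135 in DESeq2, 0.0347 in edgeR with upper-quartile normalization and 0.00927 in edgeR with the gene length correction (log2FC -0.19), but 0.303 with the correction for length and GC (log2FC -0.043). The FPKM of CEBPA was 88.3, 87.7, 85.0 and 89.3 in I/R+DMSO and 83.1, 82.1, 86.0 and 80.5 in I/R+Rk2, and on that scale the groups overlapped. Exons of AC008738.3 overlap 659 bases of CEBPA on the opposite strand. Whether reads were counted by strand is not given in the sources used here, so reads of the pair could not be told apart.

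ONECUT1 was the least abundant member. It lies on the minus strand of chromosome 15 (chr15:52756989-52791078), and had 80, 111, 53 and 110 counts in I/R+DMSO and 123, 85, 66 and 93 in I/R+Rk2. In normalized CPM this was 4.25, 5.23, 2.92 and 5.16 in I/R+DMSO and 4.03, 4.51, 3.99 and 4.71 in I/R+Rk2. The I/R+Rk2 libraries fell inside the I/R+DMSO range. The log2FC of -0.031 (SE 0.183, edgeR adjusted p = 0.928) had a 95% interval of -0.45 to 0.39. By FPKM it was at 1.91 ± 0.463 and 2.0 ± 0.380 (SD, n = 4 each).

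PROX1 was below every I/R+DMSO library in 3 of the I/R+Rk2 libraries and highest of all in the other. Its normalized CPM was 58.5, 104, 110 and 132 in I/R+DMSO and 53.5, 36.6, 44.4 and 166 in I/R+Rk2. The means of 101 ± 30.8 and 75.1 ± 60.9 CPM (SD, n = 4 each) gave a log2FC of -0.43 (SE 0.503, 95% interval -1.59 to 0.73, edgeR adjusted p = 0.592). Without I/R+Rk2 replicate 4 the log2FC of PROX1 was -1.17, with an edgeR adjusted p of 0.0455. This was the only 1 of the 21 alternatives in which PROX1 passed. With any other library left out its edgeR adjusted p was 0.477 to 0.817.

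By FPKM the difference in PROX1 was smaller, with 6.14, 10.8, 11.4 and 13.7 in I/R+DMSO and 7.06, 6.37, 7.62 and 17.2 in I/R+Rk2. I/R+DMSO replicate 1 then lay among the low I/R+Rk2 libraries. The ratio of CPM to FPKM was 9.31, 9.56, 9.50 and 9.52 kb in I/R+DMSO and 7.63, 5.79, 5.87 and 9.76 kb in I/R+Rk2. It was lower in the same 3 libraries in which PROX1 had the lowest CPM. Its highest value was 1.69 times its lowest, a spread larger than in 84.7% of genes. The gene (chr1:213983181-214041502, plus strand) has annotated transcripts of 3.075 to 8.498 kb among others, and its exons overlap 171 bases of the antisense gene PROX1-AS1. I/R+Rk2 replicate 4, the library that stood apart for PROX1, was also the I/R+Rk2 library with high FOXA2. The cause was not tested.

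**Figure D4:**
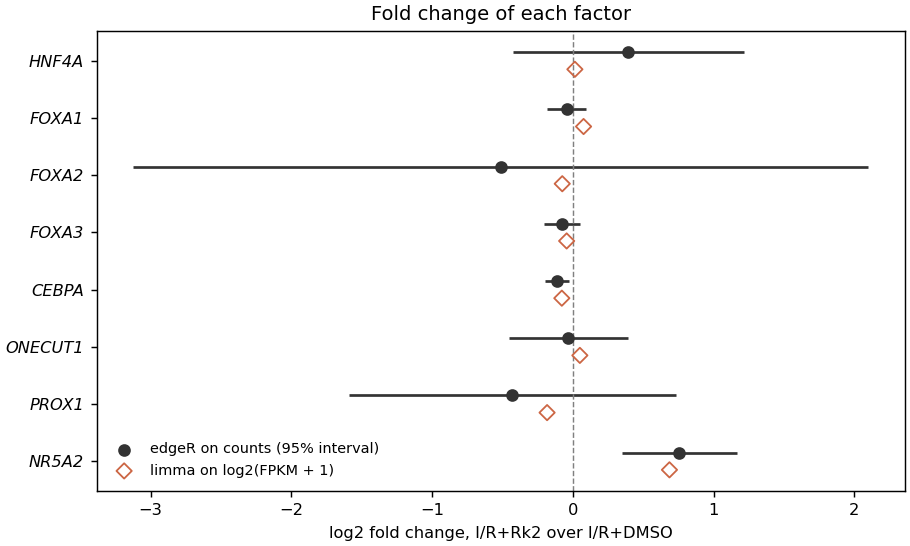
Log2 fold change of each factor, I/R+Rk2 over I/R+DMSO (linear axis), from edgeR on counts with 95% intervals (points and bars) and from limma on log2(FPKM + 1) (open diamonds). The intervals of NR5A2 (0.35 to 1.17) and CEBPA (-0.20 to -0.029) lie on 1 side of 0, and that of FOXA2 is the widest.

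On the per-length FPKM scale only CEBPA stood clear of the other 7 factors in both groups. It was highest, at 87.6 ± 1.82 FPKM in I/R+DMSO and 82.9 ± 2.31 in I/R+Rk2 (SD, n = 4 each), and overlapped no other member. ONECUT1 had the lowest mean in both groups. Its I/R+DMSO range of 1.31 to 2.29 FPKM overlapped that of FOXA2, which was at 1.79 and 1.66 FPKM in replicates 1 and 2, and in I/R+Rk2 it overlapped no other. In I/R+DMSO the means of FOXA2, HNF4A, FOXA3, FOXA1, PROX1 and NR5A2 followed in that order, from 16.7 to 7.46 FPKM, and each of these overlapped its neighbour. In I/R+Rk2 the order was HNF4A, FOXA3, NR5A2, FOXA1, FOXA2 and PROX1, from 16.0 to 9.57 FPKM, again with overlap between neighbours. NR5A2 moved from the seventh to the fourth place. The levels are those of transcripts, and protein was not measured here.

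Likeness of pattern was measured as the root mean square difference between log2 CPM profiles over the 8 libraries, each centred on its own mean. The gene nearest to NR5A2 was FRY, at 0.113, with a log2FC of 0.67 (edgeR adjusted p = 0.0122). FRY was picked by its likeness over the same 8 libraries, so a similar fold change follows from the choice and is not separate evidence. The level patterns of CEBPA, FOXA3 and FOXA1 lay close to those of PPP2CA (0.0145), SLC25A3 (0.0202) and AOC2 (0.0277). The distances were larger for FOXA2, whose closest gene was MFAP3 at 0.974, for PROX1 (TTC23, 0.414) and for HNF4A (RSAD1, 0.274). For ONECUT1 the nearest gene was ABI1, at 0.111. Among the 8 themselves the closest pair was CEBPA and FOXA3, at 0.0469. The distance is not scaled by how much a gene varies, so genes that vary little lie close together. The SD within groups was 0.0392 for CEBPA and 0.0624 for FOXA3 in log2 CPM, against 1.97 for FOXA2. The nearest member to FOXA2 was PROX1, at a distance of 1.37.

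Around these 8 stand other liver-enriched factors and nuclear receptors, listed separately. Of 32 listed, 31 were tested, and 8 rose, 5 fell and 18 did not pass the test, with a median log2FC of 0.094, beside the 18.2% called over all tested genes. CEBPB, the C/EBP of the acute phase and of regeneration, rose from 28.9 ± 1.37 to 46.4 ± 0.857 FPKM (SD, n = 4 each), with a log2FC of 0.65 in counts (edgeR adjusted p = 1.7e-04). CEBPG, a heterodimer partner in the same family, rose by a log2FC of 0.52 (edgeR adjusted p = 1.8e-04), and CEBPD fell by 0.40 in log2 units (edgeR adjusted p = 0.00164). These 3 calls held in each of the 21 alternatives run, so the C/EBP genes moved in both directions. The ratio of CEBPA to CEBPB in FPKM, looked at after the values were seen, was 3.04 ± 0.174 in I/R+DMSO and 1.79 ± 0.0635 in I/R+Rk2 (SD, n = 4 each), with ranges of 2.84 to 3.26 and 1.73 to 1.85.

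Among partners of the nuclear receptors, NR0B2 (SHP), a corepressor that binds NR5A2 and HNF4A and is itself a known NR5A2 target, rose from 4.88 ± 0.256 to 7.32 ± 0.570 FPKM (SD, n = 4 each). Its log2FC was 0.55 (edgeR adjusted p = 0.00407). KLF15, a factor of fasting metabolism, rose by a log2FC of 1.02 (edgeR adjusted p = 0.00159) from 1.21 ± 0.195 to 2.60 ± 0.143 FPKM. ATF5 fell by 0.44 (adjusted p = 0.00722) and NR2F6, an orphan receptor, by 0.25 (adjusted p = 0.0173), both on the log2 scale in edgeR, and the call of NR2F6 was lost on FPKM (limma adjusted p = 0.0665).

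Some of the higher calls in that list were lost with the gene length correction. Its length was taken from counts over FPKM of these same libraries. With it the median log2FC over all tested genes was -0.053, and why the calls were lost was not tested. ONECUT2, the paralog of ONECUT1, had a log2FC of 0.37 in counts and of -0.0052 with the gene length correction. ZBTB20, RORA and ZHX2 were at 0.60, 0.78 and 0.27 in counts and at 0.18 (adjusted p = 0.0787), 0.47 (adjusted p = 0.163) and 0.10 (adjusted p = 0.190) with that correction in edgeR. With the correction for length and GC, ZHX2 kept its call at 0.21 (edgeR adjusted p = 0.0224), while ONECUT2, ZBTB20 and RORA did not pass. GATA6, which acts in early liver, was called as lower, and lost the call in 9 of the 21 alternatives.

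**Figure D5:**
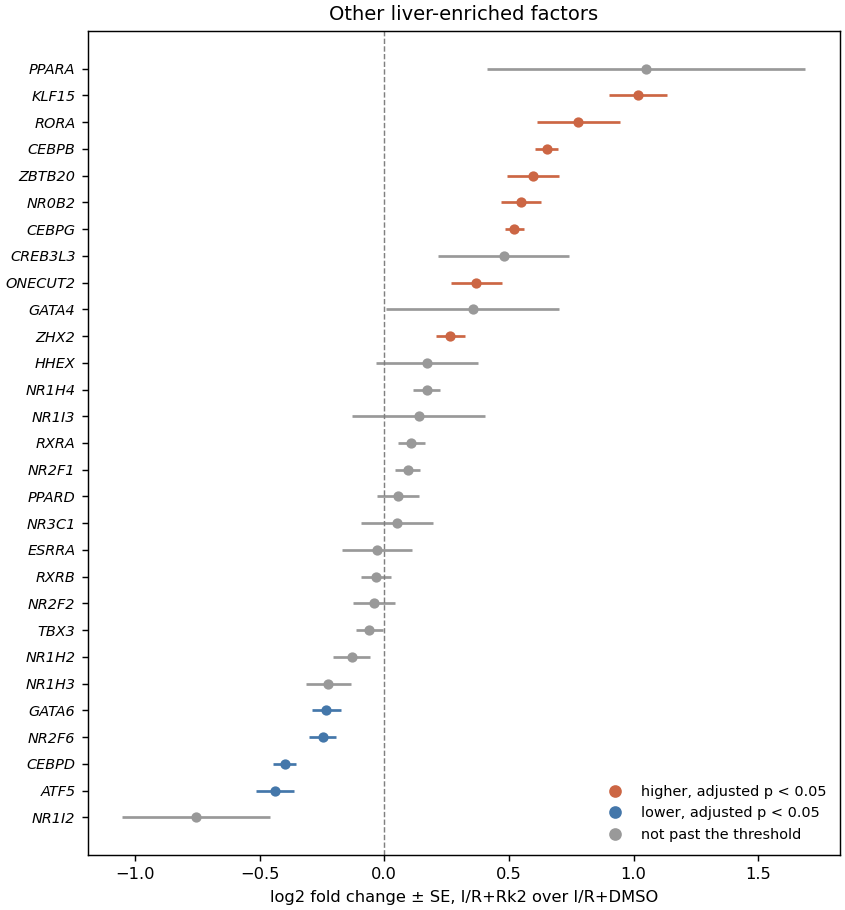
Log2 fold change with its SE (linear axis), I/R+Rk2 over I/R+DMSO, of tested liver-enriched factors outside the 8, in order of size, with 2 of the 31 not shown. Coloured points mark factors that rose or fell at an adjusted p below 0.05 in edgeR, with KLF15 (1.02) the highest of them and ATF5 (-0.44) the lowest, and grey points the others.

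Coregulators through which HNF4A and NR5A2 act were tested as a second list of 17 genes, of which 4 rose, 1 fell and 12 did not pass, with a median log2FC of 0.20, beside 18.2% called over all tested genes. PPARGC1A, the coactivator of gluconeogenesis, rose by a log2FC of 1.18 (edgeR adjusted p = 0.0299) at a low level, 0.234 ± 0.138 and 0.539 ± 0.217 FPKM (SD, n = 4 each). NCOA2 rose by 0.51 (adjusted p = 0.0179), NRIP1 by 0.41 (adjusted p = 0.0205) and SIRT1 by 0.33 (adjusted p = 0.00805), and PRMT1 fell by 0.25 (adjusted p = 0.0107), all as log2FCs in edgeR. On log2(FPKM + 1) these calls did not stand, with limma adjusted p of 0.0511 for NCOA2, 0.0564 for NRIP1, 0.0787 for SIRT1 and 0.0634 for PRMT1, and PPARGC1A below the FPKM filter. With the gene length correction NRIP1 was at a log2FC of 0.17 (edgeR adjusted p = 0.169) and PPARGC1A at 0.96 (edgeR adjusted p = 0.0710).

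Plasma protein genes are the classical targets of the 8 factors. Of 23 plasma proteins made by hepatocytes 22 were tested, and 2 rose, 2 fell and 18 did not pass, with a median log2FC of -0.081, beside the 18.2% called over all tested genes. F7, coagulation factor VII, rose by a log2FC of 0.70 (edgeR adjusted p = 0.00447) and APOB, the protein of VLDL, by 0.61 (edgeR adjusted p = 0.0124). The fibrinogen chains FGA and FGB fell by 0.34 (adjusted p = 0.00386) and 0.27 (adjusted p = 0.0462) on the log2 scale in edgeR, and the call of FGB was lost in 14 of the 21 alternatives. APOB kept its call in all 21, at a log2FC of 0.27 with the gene length correction and 0.28 with that for length and GC. ALB was at 998 ± 23.7 and 1037 ± 5.84 FPKM (SD, n = 4 each), with a log2FC of 0.012 in counts (edgeR adjusted p = 0.843).

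Of 20 hepatocyte enzymes and surface proteins 12 were tested, of which 2 rose and the other 10 did not pass, with a median log2FC of 0.12, beside 18.2% called over all tested genes. MTTP, which loads lipid onto APOB, rose by a log2FC of 0.20 (edgeR adjusted p = 0.0255), a call lost in 8 of the 21 alternatives. Of 7 sterol and bile acid genes known as NR5A2 targets only 2 were tested. NR0B2 rose and SCARB1 did not pass, beside 18.2% called over all tested genes. SCARB1 had a mean of 87.0 FPKM in I/R+DMSO and of 94.2 FPKM in I/R+Rk2. Its log2FC was 0.073 (edgeR adjusted p = 0.314). The other genes of this list were below the count filter or not in the count table. The response of NR5A2 targets thus could not be read widely in these cells.

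The hepatocyte label was checked against marker genes. Of the 23 plasma protein genes 22 were above 1 FPKM in every library, F9 being listed at 0, but of the 20 enzymes and surface proteins only 8 were. Another 10 of these 20 were below 1 FPKM in every library, and CYP3A4 and G6PC were listed at 0. The fetal protein AFP was at 2229 to 2526 FPKM. Plasma protein genes of hepatocytes were thus present, while many adult enzymes were at or near 0. Of 15 fetal and progenitor genes 13 were tested, with 2 higher (PROM1 and SOX4) and 2 lower (KRT19, by 0.55 on the log2 scale with an adjusted p of 0.00204 in edgeR, and CD24), beside 18.2% called over all tested genes. SOX4 was called in 19 of the 21 alternatives, with a log2FC of 0.030 under the gene length correction and 0.15 (edgeR adjusted p = 0.0359) under that for length and GC. CD24 lost its call in 13 of the 21, and its log2FC was -0.15 in counts and -0.048 on FPKM (limma adjusted p = 0.592).

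Most markers of other cell types were below 1 FPKM. CDX2, an intestinal factor, fell from 6.64 ± 0.629 to 5.00 ± 0.424 FPKM (SD, n = 4 each; edgeR adjusted p = 0.00441), as 1 of 8 factors of other endoderm organs, of which 2 were tested, beside 18.2% called over all tested genes. In each of the stellate, endothelial and macrophage lists a single gene was above 1 FPKM in every library (COL1A2 at 3.52 to 5.69, PECAM1 at 1.07 to 2.10 and CD68 at 24.1 to 32.6), and KDR, CDH5, VWF, PTPRC, CD163 and CSF1R were listed at 0. In these stellate, endothelial and macrophage lists 3, 2 and 2 genes were tested. CD14 was the single gene of the 3 lists that was called, beside 18.2% called over all tested genes. It was at 0.348 FPKM in I/R+DMSO and 0.140 in I/R+Rk2, a call lost in 10 of the 17 alternatives that gave an adjusted p for it. Summed marker FPKM was 5.25 to 6.79 and 5.12 to 6.57 for stellate cells, 1.24 to 2.06 and 1.44 to 2.87 for endothelial cells and 27.2 to 32.7 and 24.3 to 32.7 for macrophages, in I/R+DMSO and I/R+Rk2. The part of these genes in the values of the 8 factors was not tested.

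Library totals ranged from 16374082 to 30310479 counts, the highest being I/R+Rk2 replicate 1. The biological coefficient of variation was 17.1%. FOXA2, PROX1 and HNF4A differed between libraries of 1 group by more than most genes did, a spread above that of 99.3%, 95.8% and 92.6% of tested genes.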

How the data were processed

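RNA-seq of 8 HuH7 libraries was used. The authors deposited raw read counts per gene without normalization, and FPKM per gene, which the authors normalized for transcript length and library size. The submitters' processing notes name FastQC 0.11.5, HISAT2 2.2.1, StringTie 1.3.3 and genome build hg38. The counting tool, the annotation and the strand setting are not given in the sources used here. Gene symbols that had been turned into dates (22 rows of counts), holding 0.111% of the total, were left out.

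Samples were grouped by their labels. Genes that reached 10 counts in 4 or more libraries were tested with edgeR 4.0.16 (robust quasi-likelihood test, TMM, condition only) in R 4.3.3, with Benjamini-Hochberg adjustment over all tested genes and a threshold of 0.05. FPKM was tested with limma 3.58.1 on log2(FPKM + 1), where the mean FPKM reached 0.5. Fold changes on that scale understate those of low genes. Library totals of 16374082 to 30310479 counts set the counting precision. Alternatives were DESeq2 1.42.0, voom with sample weights, upper-quartile normalization, library size only, no filter, at least 50 counts in every library, a pseudocount of 0.1, FPKM without a filter, a replicate block, loess corrections (span 0.5) for gene length and GC content, and leaving out each library. Gene length was taken from counts over FPKM, as a stand-in for the length itself. Length with GC content came from the longest GENCODE v29 transcript. Steps were tested on simulated data.

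The members and the gene lists were chosen with earlier results of these data known, so no set test was run. From each list the text names called genes, at most 4 in each direction in order of adjusted p, and for marker lists also the 3 highest. Some genes that this rule or the lists include are not reported here. Other genes named were chosen after their values were seen. Pattern likeness used tested genes with a mean of at least 5 CPM.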

Additional observations from a re-analysis of the deposited data

Results flagged for a closer look

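In 5 of 32 groups of 4 values (8 factors, in CPM and in FPKM, in each condition) a library lay apart from the other 3, its gap to the nearest one, as a share of the whole range, being above Dixon's 95% critical value. Chance alone flags about 1 in 20 such groups, and CPM and FPKM of a gene are not independent.

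FOXA2 in I/R+Rk2 replicate 4 was at 95.5 CPM against 15.4 in the next library, a gap of 0.961 of the range. Its FPKM there was 33.7 against 5.38, also a gap of 0.961. PROX1 in the same library was at 166 CPM against 53.5, with a gap of 0.869, and at 17.2 against 7.62 FPKM, with a gap of 0.884. In I/R+DMSO neither gene met this rule, where FOXA2 had a pair of high and a pair of low libraries. FOXA1 in I/R+Rk2 replicate 1, the deepest library, was at 38.2 CPM against 35.8, a gap of 0.836 within a narrow range. The causes were not tested.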

How the results depend on the processing

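In place of the 2352 genes called, limma on log2(FPKM + 1) called 1123, with a pseudocount of 0.1 1106, and without a filter 970. Leaving out 1 library gave 1293 (without I/R+Rk2 replicate 4) to 2287 calls. The split into higher and lower calls was 1417 and 935, against 1246 and 1306 with upper-quartile normalization, 1642 and 683 with library size only, 867 and 1660 with the gene length correction and 781 and 1500 with length and GC.

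The number of the 8 factors called was 1, against 2 with upper-quartile normalization, DESeq2 or the gene length correction, and 0 to 1 with a library left out. The added gene was CEBPA, with log2FC of -0.14, -0.11 and -0.19 in these. CEBPA was at -0.19 with the replicate block and length correction together, but at -0.043 (edgeR adjusted p = 0.303) with length and GC. A single call was not always NR5A2. Without I/R+Rk2 replicate 4 it was PROX1 (edgeR adjusted p = 0.0455). With the replicate block and length correction together it was CEBPA (edgeR adjusted p = 0.0318). NR5A2 kept its sign in all 21 alternatives and its call in 16, with adjusted p from 6.1e-04 to 0.0666. Its log2FC was 0.69 (edgeR adjusted p = 0.0537) with the replicate block and length correction, and 0.62 to 0.87 with a library left out. The lowest value for NR5A2 was 0.56 (edgeR adjusted p = 0.0426), with length and GC. PROX1 ranged from -1.17 to -0.20 with a library left out.

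Signs turned only where no call was made, except for ONECUT2. FOXA1 was at 0.077 on FPKM with a pseudocount of 1, with or without a filter, at 0.082 with 0.1, and from -0.071 to 0.00047 with a library left out. ONECUT1 was at 0.050 and 0.078 in the same FPKM fits, at 0.038 with length and GC, and from -0.18 to 0.064 with a library left out. FOXA2 was at 0.038 on FPKM with the pseudocount of 0.1, at 0.074 with the replicate block, at 0.016 with block and length correction, and from -1.84 to 0.031 with a library left out. FOXA3 was at 0.0063 with length and GC. ONECUT2 was at -0.0052 with the length correction, -0.014 with length and GC, and -0.0062 with block and length correction. With a library left out 3 to 8 of the 8 factors kept their place in the order of FPKM, the lowest number without I/R+DMSO replicate 3 or 4, or without replicate 4 of I/R+Rk2.

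The labels give both groups replicate numbers 1 to 4, but deviations of same-numbered libraries correlated at 0.0160, -0.00950, 0.0382 and 0.0845, so the numbers were not taken to pair them. By this measure I/R+DMSO replicates 1 to 4 were nearest to I/R+Rk2 replicates 2, 1, 4 and 4. With the replicate block 1143 genes were higher and 672 lower, and NR5A2 was at 0.79 (edgeR adjusted p = 0.0479). The causes of these shifts were not tested. Of the 8 factors ONECUT1 had the fewest counts, 53 to 123 per library.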
